A study of Homo sapiens with 6 samples.

Results

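Peaks of the transcriptional coactivators YAP and TAZ were described around 10 genes that drive the cell cycle and DNA replication: CCND1, CCNE1, CDC6, MCM2, CCNA2, CDK1, CCNB1, FOXM1, TOP2A and MKI67. The genes were chosen by name and not by their peaks, though with earlier results of these data known. A peak was counted for a gene when it overlapped the gene's window by at least 1 bp. Each window was made of the gene span, given in whole kb on genome build hg19, and 20 kb on each side. The 10 windows were 48 to 71 kb long and came to 587000 bases. They met 117 and 116 of the 392120 and 353336 peaks of the YAP libraries, and 115 and 124 of the 333505 and 310657 peaks of the TAZ libraries. All libraries came from H1299, an established human line of non-small cell lung cancer that lacks p53. Every culture had been kept without serum for 18 h. The groups were 2 libraries made with an antibody against YAP, 2 made with an antibody against TAZ, and 2 inputs without antibody, which have no list of their own. The labels did not say that replicates came from separate cultures, so each spread given here is one between libraries and may be technical.

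YAP and TAZ are the coactivators that the Hippo kinase pathway keeps out of the nucleus. They do not bind DNA themselves but are carried to it by partners, above all the TEAD factors, and much of their known binding lies at enhancers away from gene starts. Growth factor signals induce cyclin D1, which starts the retinoblastoma and E2F switch into S phase. E2F factors then act on the genes of replication licensing, and the MuvB complexes with B-MYB and FOXM1 act on the genes of G2 and mitosis, many of which carry CCAAT boxes and a cell cycle genes homology region (CHR) near their start. YAP and TAZ activity is known to raise many of these genes in cancer cells.

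The deposited values are those of broad peaks called in each library. The fold is a ratio given by the authors, ChIP over input in a peak, and the −log10 q measures how far a peak stands above input given its reads. Peak lists carry no read totals, so depth is unknown, and a deeper library can yield more and wider peaks, so all comparisons between antibodies carry that limit. Over chromosomes 1 to 22 and X 16.9% and 14.8% of the sequence lay under YAP peaks, against 13.3% and 14.0% under TAZ peaks. The same counts were made in consecutive genome tiles of 56 kb, about as long as a member window, of which the 50402 with a peak in at least 1 library were used. These tiles include gene deserts, so they are a background over all positions and not over genes.

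All 10 windows held peaks in all 4 libraries, as did 94.4% of the tiles. Each of the 10 also held bases under peaks of all 4 libraries, as did 83.9% of the tiles. Peaks covered 40.7% and 38.9% of the windows in the YAP libraries, against 36.2% and 38.8% in the TAZ libraries. The median member window was covered to 35.2% and 31.6% in the YAP libraries and to 34.7% and 37.1% in the TAZ libraries, whereas the median tile was covered to 11.1% and 8.76% by YAP peaks and to 7.39% and 6.89% by TAZ peaks. Members differed widely among themselves, from 12.5% for CDK1 in TAZ replicate 1 to 76.7% for CCNB1 in YAP replicate 2. In each library 9 or 10 of the windows were covered above the median tile of their own chromosome, with CDC6 as the exception in YAP replicate 2 and in both TAZ libraries. Bases under peaks of all 4 libraries made up 22.5% of the member windows, and 7.64% of the tiles on average. No test was made on these shares.

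**Figure D1:**
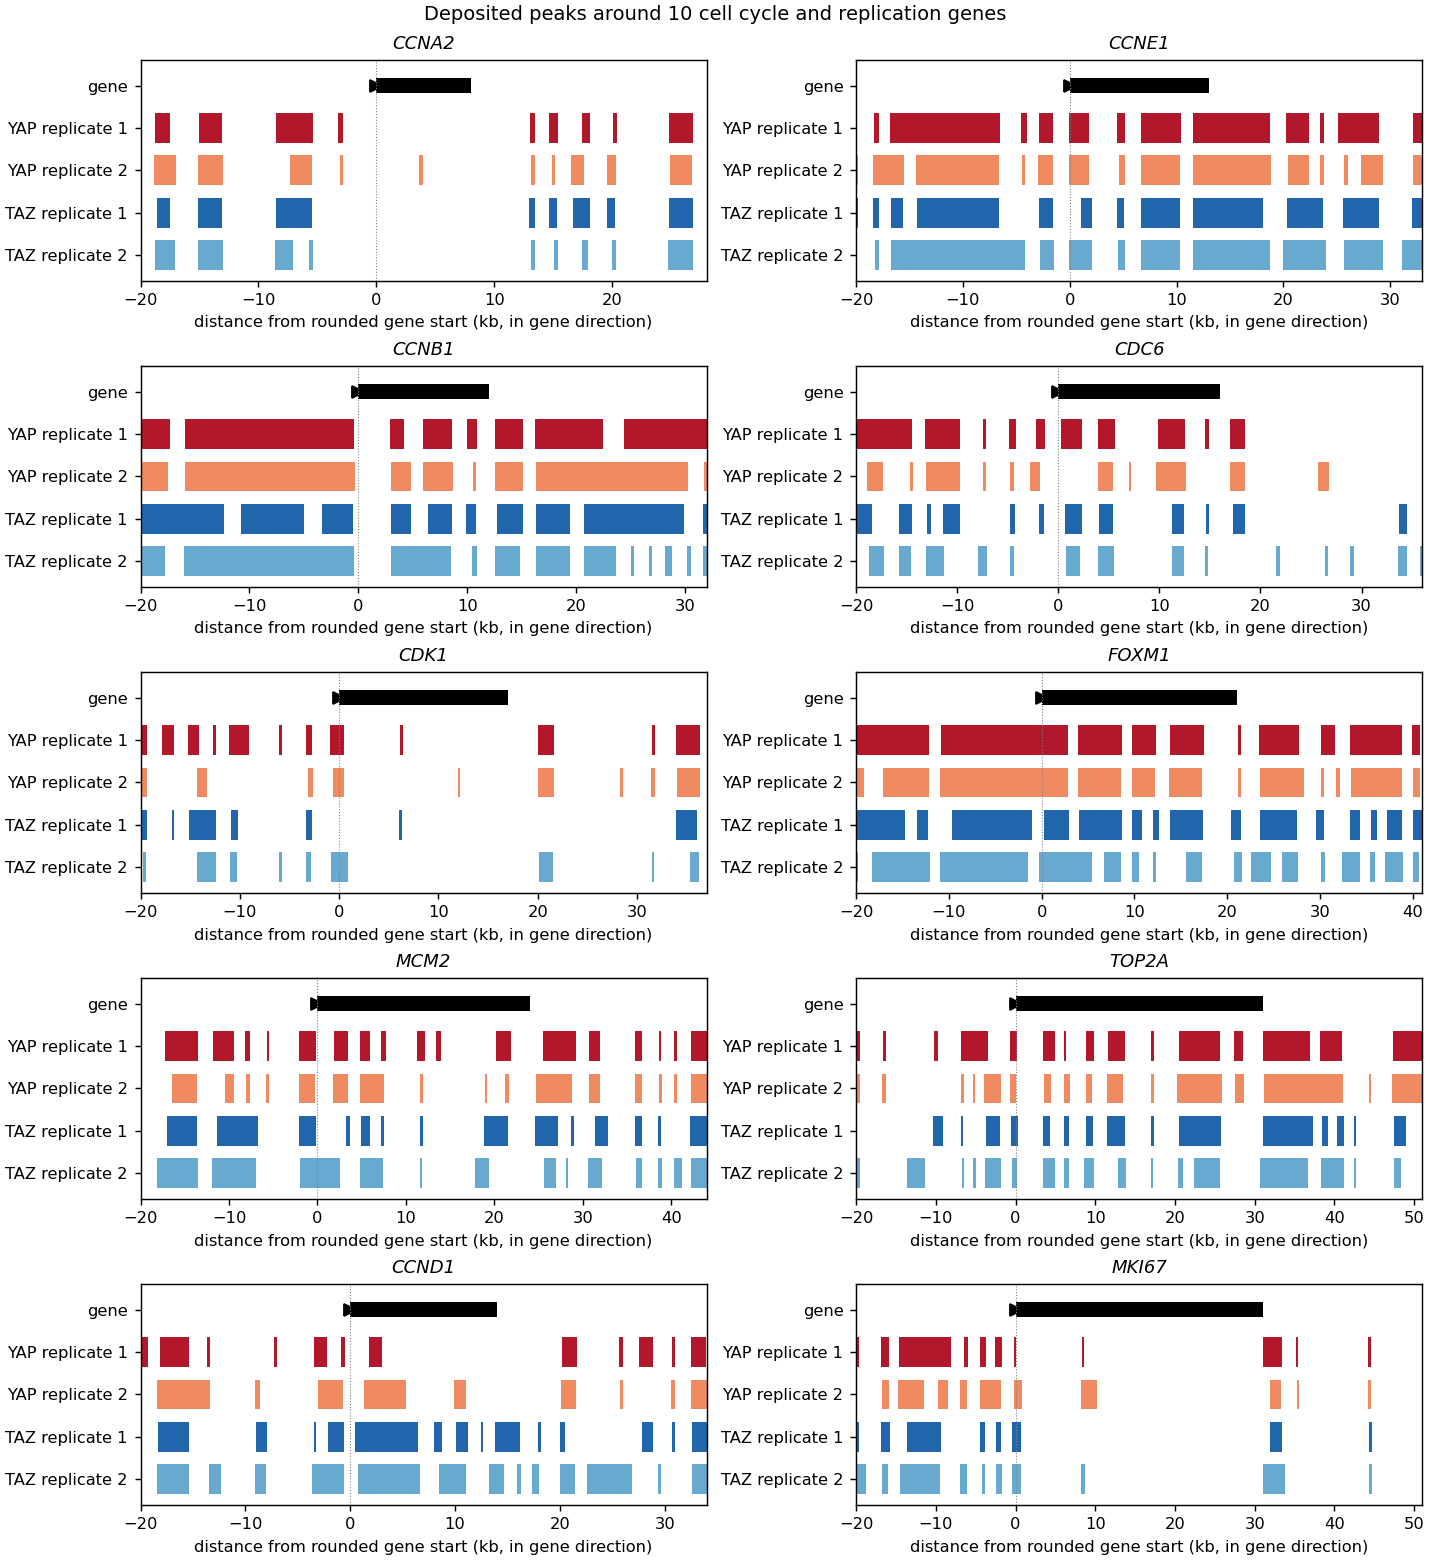
Each panel shows 1 gene, with distance from the rounded gene start in kb along the gene's direction on the x axis, the gene span as a black bar with an arrowhead at its start, and the deposited peaks of the 4 libraries as coloured bars, cut at the window edges. Peaks of CCNB1, FOXM1 and CCNE1 fill most of the window, those of CCNA2, CDK1 and MKI67 lie mostly outside the gene, and in CCND1 the gene itself is covered more in the TAZ libraries.

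Of the G1 cyclins, CCND1 encodes cyclin D1, the cyclin that answers to growth factors. Its window was covered to 21.9% and 31.0% in the YAP libraries, against 36.6% and 49.2% in the TAZ libraries, so both TAZ libraries lay above both YAP libraries. CCNE1 encodes cyclin E1, which activates CDK2 at the start of S phase. Its window was covered to 63.2% and 59.9% in the YAP libraries and to 57.9% and 70.5% in the TAZ libraries, and the antibodies overlapped. The CCNE1 window exceeded only 58.3% to 64.5% of the tiles of chromosome 19, whose median tile was itself covered to 55.2% and 52.7% by YAP peaks and to 49.3% and 54.5% by TAZ peaks.

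Of the licensing genes, CDC6 encodes the factor that loads the replicative helicase onto origins. Its window was covered to 34.1% and 25.6% in the YAP libraries, against 22% and 22.5% in the TAZ libraries, without overlap. It was the only window that fell below the median tile of its chromosome in any library, chromosome 17 tiles having a median of 31.8% and 29.1% under YAP peaks, against 27.5% and 30.0% under TAZ peaks. MCM2 encodes a subunit of that helicase. It was covered to 36.3% and 32.2% in the YAP libraries and to 35.5% and 39.6% in the TAZ libraries, which overlapped.

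The cyclins and the kinase of S phase, G2 and mitosis differed from each other. CCNA2 encodes cyclin A2, which acts in S phase and G2. Its window was covered to 23.2% and 22.8% in the YAP libraries and to 24.0% and 19.0% in the TAZ libraries, with overlap. CDK1, the kinase of entry into mitosis, had 21.2% and 14.0% in the YAP libraries, against 12.5% and 14.2% in the TAZ libraries, with overlap. The CDK1 window held just 4 stretches under peaks of all 4 libraries, together 1561 bp or 2.74% of it, the smallest share among the members. CCNB1 encodes cyclin B1, the partner of CDK1 at entry into mitosis. Peaks covered 75.7% and 76.7% of its window in the YAP libraries, against 70.3% and 65.5% in the TAZ libraries, so both YAP libraries lay above both TAZ libraries. The CCNB1 window exceeded at least 98.8% of the tiles of chromosome 5 in each library.

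FOXM1, the transcription factor that drives genes of G2 and mitosis, had 73.9% and 69.3% covered in the YAP libraries, against 62.2% and 59.8% in the TAZ libraries, without overlap. Its window exceeded at least 94.2% of the tiles of chromosome 12 in each library. A coverage above 50% in all 4 libraries was thus seen in 3 of 10 members (CCNE1, CCNB1 and FOXM1) and in 4.69% of the tiles. On chromosome 19, which holds CCNE1, the median tile was itself covered to 49.3% to 55.2% across the libraries. TOP2A, the topoisomerase that untangles sister chromatids, had 42.2% covered in both YAP libraries, against 33.9% and 34.6% in the TAZ libraries, without overlap. MKI67, whose product Ki-67 coats mitotic chromosomes and marks cycling cells, had 19.3% and 19.9% covered in the YAP libraries, against 13.9% and 19.2% in the TAZ libraries. Both YAP libraries lay above, but YAP replicate 1 exceeded TAZ replicate 2 by far less than the TAZ libraries differed from each other.

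Coverage at CCNB1 and FOXM1 was made of wide peaks. Upstream of CCNB1 a peak of YAP replicate 1 ran on chromosome 5 from 68446094 to 68461602, a width of 15509 bp, and YAP replicate 2 and TAZ replicate 2 had peaks of 15640 and 15552 bp with nearly the same ends. In TAZ replicate 1 the peak nearest the start was 2913 bp wide. In all 4 libraries that peak ended 0.3 to 0.5 kb before the rounded gene start, and no other peak lay within 2 kb of the start. Its fold was 3.59 and 3.67 in the YAP libraries, against 3.13 and 3.25 in the TAZ libraries. The list medians were 3.14 for both YAP lists, below these YAP folds, and 3.16 and 3.03 for the TAZ lists, near these TAZ folds. At FOXM1 a single peak spanned the gene start in each YAP library, 13698 and 13835 bp wide, with a fold of 3.49 and 3.52. Each TAZ library had a pair of peaks in its place. The gap between them ran from 1.1 kb before the start to 0.3 kb inside in TAZ replicate 1, and from 1.5 to 0.3 kb before the start in TAZ replicate 2. The longest stretch under peaks of all 4 libraries in any window, 8155 bp, lay upstream of FOXM1 on chromosome 12 from 2988492 to 2996646. RHNO1 and TULP3 are neighbours of FOXM1 in the RefSeq gene order, and peaks were not assigned between them.

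**Figure D2:**
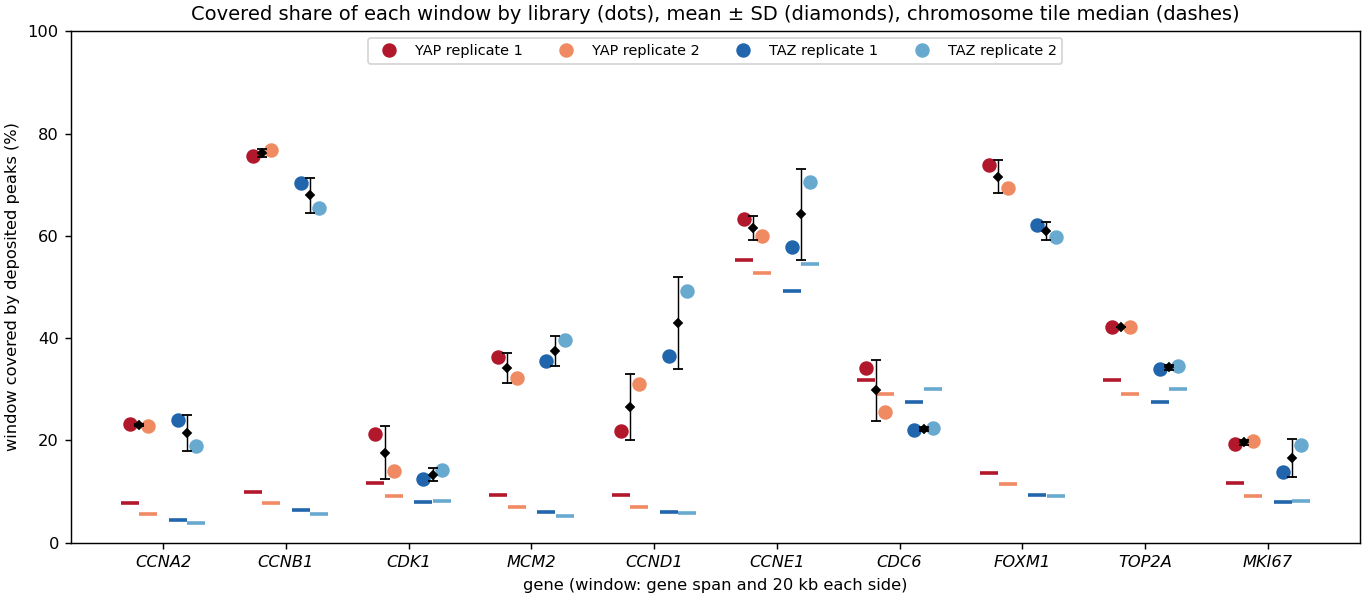
The share of each window under deposited peaks is plotted in percent for each gene, with 1 dot per library, the mean ± SD of 2 libraries as a diamond with bars, and the library's median 56 kb tile of the same chromosome as a dash. CCNB1, CCNE1 and FOXM1 lie above 50% in all 4 libraries, and CCND1 is the gene in which both TAZ libraries lie above both YAP libraries.

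Setting the antibodies against each other, both YAP libraries had the higher coverage in 5 of 10 windows (CCNB1, CDC6, FOXM1, TOP2A and MKI67), both TAZ libraries in 1 (CCND1), and the libraries overlapped in 4. Among the tiles the shares were 46.6% with both YAP libraries higher and 5.81% with both TAZ libraries higher, so the count for YAP is close to the background. With 2 libraries against 2, the smallest p of an exact two-sided permutation test is 0.333, and that value was reached in each of the 6 windows without overlap. Over all windows the mean covered share was 39.8% ± 1.27 in YAP libraries, against 37.5% ± 1.84 in TAZ libraries (SD, n = 2 each), a difference of 2.31 points. That difference was -0.777 points when every list was shortened to the length of the shortest. When each value was divided by the share of the genome covered in its library, both YAP libraries were higher in 1 window (CDC6) and both TAZ libraries in 3 (CCND1, CCNE1 and MCM2), against 30.4% and 14.3% of the tiles.

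With all deposited peaks, CCND1 was the member with the widest difference in covered share between antibodies. Its window, the one in which TAZ lay above YAP, had a mean coverage of 26.5% ± 6.42 in YAP libraries, against 42.9% ± 8.96 in TAZ libraries (SD, n = 2 each), and a difference of -16.4 points (exact two-sided permutation p = 0.333, the smallest possible). The gap was widest over the gene itself, where 8.50% and 37.1% of the span beyond the start zone lay under peaks in the YAP libraries, against 56.9% and 66.6% in the TAZ libraries. Just inside the gene start, a TAZ peak ran from 0.5 to 6.4 kb in replicate 1 and from 0.8 to 6.7 kb in replicate 2, with a fold of 3.29 and 3.59. In YAP replicate 2 the peak there ran from 1.4 to 5.4 kb with a fold of 3.13, and in YAP replicate 1 it ran from 1.8 to 3.0 kb with a fold of 2.27. Bases under both TAZ libraries and neither YAP library made up 7.25% of the window, a larger share than in 98.9% of the tiles. Without TAZ replicate 2 the difference was -10.1 points. It was negative under every setting tried, but the libraries overlapped when peaks were limited to a q-value of at most 0.01, where it was -7.45 points and narrower than the 13.8 points at FOXM1 and 13.5 points at TOP2A, and with only the 20000 peaks of highest −log10 q per list, where it was -0.986 points.

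Within the windows, the peaks lay more before the genes than inside them. From 20 to 2 kb before the gene start, peaks covered 53.0% and 45.6% in the YAP libraries, against 43.6% and 50.6% in the TAZ libraries. Of the gene span beyond 2 kb from the start, they covered 28.2% and 30.5% in the YAP libraries, against 28.7% and 27.3% in the TAZ libraries. The 20 kb after the gene end was covered to 40.3% and 40.1% in the YAP libraries and to 35.8% and 36.3% in the TAZ libraries. Coverage before the start exceeded that inside the gene in all 4 libraries for 8 of 10 members. TOP2A showed the opposite in all 4. At CCND1 29.8% and 37.7% was covered before the start and 8.50% and 37.1% inside the gene in the YAP libraries, whereas the TAZ libraries had 24.9% and 38.6% before the start and 56.9% and 66.6% inside. In RefSeq order BBS7 lies within 20 kb before CCNA2, TPRA1 before MCM2, WIPF2 before CDC6 and RHNO1 before FOXM1. CDK1, CCNE1 and TOP2A had no neighbour within 20 kb on either side. Peaks were not assigned between a member and its neighbours. No annotation of build hg19 was used, so the same count over other genes was not made here.

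In MKI67, CDK1 and CCNA2 little of the gene itself lay under peaks. Before the MKI67 start, 54.1% and 48.6% was covered in the YAP libraries, against 37.2% and 48% in the TAZ libraries. Inside the gene the shares were 1.02% and 6.98% in the YAP libraries, against 0% and 1.43% in the TAZ libraries. In CDK1 33.8% and 10.6% before the start and 1.94% and 1.72% inside the gene lay under YAP peaks, against 26.1% and 21.2% before the start and 2.11% and 0% inside under TAZ peaks. Before the CCNA2 start, 38.2% and 34.4% lay under YAP peaks, against 34.4% and 31.1% under TAZ peaks. Inside CCNA2 a peak was present in 1 library, YAP replicate 2, where it covered 6.62%. In TOP2A coverage was higher towards and beyond the 3′ end, with 61.8% and 69.7% of the 20 kb after the gene in the YAP libraries, against 47.1% and 48.5% in the TAZ libraries. A stretch of 5617 bp just past the TOP2A end, on chromosome 17 from 38538262 to 38543878, lay under peaks of all 4 libraries.

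**Figure D3:**
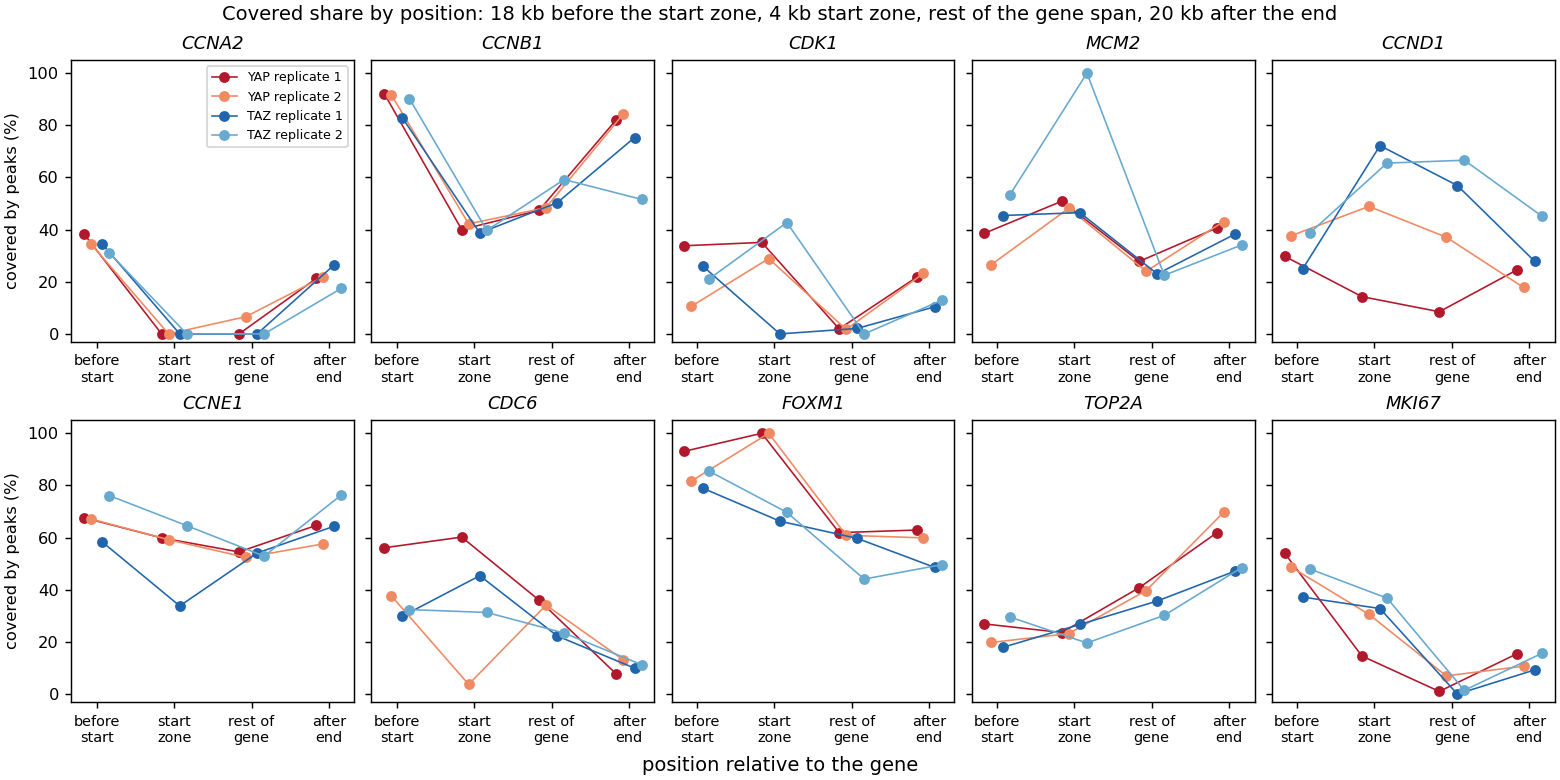
For each gene the percent of bases under deposited peaks is plotted for the part from 20 to 2 kb before the rounded start, the start zone of 2 kb each side, the rest of the gene span and the 20 kb after the gene, with 1 coloured line per library. In MKI67, CDK1 and CCNA2 the rest of the gene lies at 0% to 6.98% in all 4 libraries, and in TOP2A coverage is highest after the gene.

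The start zone, 2 kb to each side of the rounded gene start, held a peak in all 4 libraries at 8 of 10 members. The share was 50.4% among genome tiles of 4 kb with a peak in at least 1 library, and 32.3% among all 758803 tiles of that length. Those tiles are not drawn from regions covered like the windows. Peaks covered 39.9% and 38.5% of the start zones in the YAP libraries, against 36.2% and 47.0% in the TAZ libraries. Of the whole windows they covered 40.7% and 38.9% in the YAP libraries, against 36.2% and 38.8% in the TAZ libraries. Only in TAZ replicate 2 was the start zone clearly covered above the whole window. CCNA2 had no peak there in any library, and CDK1 had one in 3 libraries. In none of the members did a peak with a fold of at least 4 lie in the start zone of every library, and with a q-value of at most 0.01 the count was 4. The zone was covered by at least 50% in all 4 libraries at FOXM1 alone. No share of 4 kb tiles was made under these stricter limits, so these counts have no background.

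TOP2A and MKI67 had narrow peaks over the rounded start itself in every library. At TOP2A these were 945 and 692 bp wide in the YAP libraries, against 958 and 608 bp in the TAZ libraries. Their fold was 3.69 and 3.22 for YAP, against 3.39 and 2.55 for TAZ, with overlap. The part common to all 4 libraries lay on chromosome 17 from 38574952 to 38575413. At MKI67 the peaks were 284 and 1092 bp wide in the YAP libraries, against 1147 and 1156 bp in the TAZ libraries. Their fold was 2.92 and 2.41 for YAP, against 2.86 and 2.89 for TAZ. Another peak lay near 2 kb before the MKI67 start in all 4 libraries, and its fold was 3.77 and 2.49 for YAP, against 3.71 and 3.16 for TAZ. At CDK1 a peak crossed the rounded start in YAP replicates 1 and 2, with a fold of 2.50 and 2.43. The same held in TAZ replicate 2, with a fold of 2.67, whereas the nearest peak of TAZ replicate 1 was 2.7 kb away. The nearest peak to the CCNA2 start was 2.9 and 2.8 kb away in the YAP libraries and 5.4 kb away in both TAZ libraries.

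CCNE1 had a peak ending about 1.5 kb before the start in all 4 libraries, and its fold was 3.78 and 2.83 for YAP, against 3.32 and 3.35 for TAZ. A further CCNE1 peak reached 1.8 to 2.1 kb into the gene and crossed the start in 3 libraries. Its fold was 2.67 and 2.82 for YAP, against 4.70 and 4.19 for TAZ, and in TAZ replicate 1 it began 1.1 kb inside the gene. Both TAZ folds lay above both YAP folds, but no background share was made for single peaks. The highest folds of the CCNE1 window overlapped between the antibodies. At MCM2 a peak ended 0.1 to 0.3 kb before the start in the YAP libraries and in TAZ replicate 1. Its fold was 3.72 and 3.38 for YAP, against 2.95 in TAZ replicate 1. The MCM2 peak of TAZ replicate 2 instead ran across the start to 2.5 kb inside, with a fold of 2.97. CDC6 had a peak from 0.3 to 2.4 kb inside the gene in YAP replicate 1 and similar ones in both TAZ libraries, but YAP replicate 2 had only a peak ending 1.9 kb before the start. Starts were rounded to 1 kb, so whether a peak covers or just misses a start cannot be told within that distance.

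The 250 bases before the gene start of 5 members are shown because their starts differed in peaks: none at CCNA2, an end just before the start at CCNB1, a start crossed in 3 libraries at CDK1, and a start crossed in all 4 at TOP2A and MKI67. The sequences are those of RefSeq on build GRCh38.p14, which differs from the build of the peaks, so no base of them is placed under a peak here. Capitals mark matches, on either strand, to the motifs searched: TEAD (GGAATG), AP-1 (TGACTCA or TGAGTCA), E2F (TTTCCCGC or TTTGGCGC or TTTCGCGC or TTTGCCGC), CHR (TTTGAA or TTTAAA) and the CCAAT box (CCAAT). They are CCNA2 chr4:121823884-121824133 (minus strand), CCNB1 chr5:69166900-69167149 (plus), CDK1 chr10:60778228-60778477 (plus, the later of 2 entries), TOP2A chr17:40417897-40418146 (minus) and MKI67 chr10:128126424-128126673 (minus).
CCNA2: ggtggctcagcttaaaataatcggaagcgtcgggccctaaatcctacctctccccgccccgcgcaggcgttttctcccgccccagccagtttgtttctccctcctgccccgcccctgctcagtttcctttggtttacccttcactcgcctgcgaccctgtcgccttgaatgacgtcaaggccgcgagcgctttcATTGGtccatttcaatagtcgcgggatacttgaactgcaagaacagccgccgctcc
CCNB1: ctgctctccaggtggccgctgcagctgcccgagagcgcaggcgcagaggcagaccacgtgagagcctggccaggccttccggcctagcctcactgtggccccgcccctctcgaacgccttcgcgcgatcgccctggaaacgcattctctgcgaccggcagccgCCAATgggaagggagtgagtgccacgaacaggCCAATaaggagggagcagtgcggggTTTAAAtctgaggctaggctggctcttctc
CDK1: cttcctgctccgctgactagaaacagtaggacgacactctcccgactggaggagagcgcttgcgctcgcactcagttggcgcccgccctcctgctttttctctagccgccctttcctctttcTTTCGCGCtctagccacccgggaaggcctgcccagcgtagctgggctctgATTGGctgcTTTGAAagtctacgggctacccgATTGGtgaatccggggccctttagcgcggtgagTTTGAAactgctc
TOP2A: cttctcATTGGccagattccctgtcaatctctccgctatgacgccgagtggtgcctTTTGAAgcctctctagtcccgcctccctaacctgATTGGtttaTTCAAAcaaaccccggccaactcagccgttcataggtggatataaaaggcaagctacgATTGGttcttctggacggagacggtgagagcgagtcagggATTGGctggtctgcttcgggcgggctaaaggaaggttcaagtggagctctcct
MKI67: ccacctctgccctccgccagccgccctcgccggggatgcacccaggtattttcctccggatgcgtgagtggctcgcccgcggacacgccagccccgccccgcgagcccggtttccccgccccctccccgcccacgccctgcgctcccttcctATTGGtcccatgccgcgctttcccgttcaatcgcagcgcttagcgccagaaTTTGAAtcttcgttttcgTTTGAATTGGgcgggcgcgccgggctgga

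The promoter table held 8 of the 10 members, CCND1 and FOXM1 not among them. The motif of TEAD, the main DNA-binding partner of YAP and TAZ, matched in 0 of the 8, and that of AP-1, a frequent companion at their enhancers, in 0. Over all 27305 genes of the table these motifs matched in 14.3% and 5.19%. The CCAAT box matched in 6 of 8 members and in 37.0% of all genes, and the CHR in 5 of 8 and 25.5% of all genes. TOP2A had 4 CCAAT boxes, CDC6 had 3, and CCNB1 had 2 and a CHR of the form TTTAAA. MKI67 had 2 of each, and the CHR nearer its start overlapped a CCAAT box by 1 base. E2F letters matched in CDK1 alone, and in 3.40% of all genes. In a wider list of 38 cell cycle genes, of which 31 were in the table, TEAD letters matched in 4, AP-1 in 0, E2F in 10, CHR in 11 and the CCAAT box in 24. These are matches of letters in a fixed window, and no absence of a match bears on binding elsewhere in the loci. Only the exact letters named were searched. An absence of a match therefore does not show that a promoter lacks a variant form of the element.

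The strongest peaks of most windows lay away from the starts and differed between libraries. In the MCM2 window, however, the peak with the highest −log10 q was the same in all 4 libraries. It lay 35.9 to 36.6 kb after the start, beyond the end of the gene, on chromosome 3 from 127352865 to 127353638 in YAP replicate 1. Its fold was 4.45 and 4.70 for YAP, against 4.41 and 4.68 for TAZ, which places it among the top 3.01% and 1.10% of the YAP lists and the top 3.82% and 0.902% of the TAZ lists by fold. PODXL2 is the gene on that side of MCM2 in RefSeq order. At FOXM1, YAP replicate 1, YAP replicate 2 and TAZ replicate 1 shared their best peak, about 40 kb past the start, on chromosome 12 from 2946223 to 2947092 in YAP replicate 1. The fold there was 4.52 and 4.91 for YAP, against 4.70 and 3.35 for TAZ.

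Some leading peaks were high in 1 library alone. At MKI67 YAP replicate 2 had a peak of fold 5.32 from 9.8 to 8.5 kb before the start, the highest fold in any window, and the other libraries had 3.39 (YAP replicate 1), 3.29 (TAZ replicate 1) and 2.84 (TAZ replicate 2) there. At CCND1 TAZ replicate 2 had a peak of fold 5.24 from 9.1 to 8.0 kb before the start, where YAP replicate 1 had no peak, YAP replicate 2 had 3.38 and TAZ replicate 1 had 2.60. At CCNB1 YAP replicate 1 had a fold of 4.92 from 2.9 to 4.2 kb inside the gene, against 2.88 in YAP replicate 2 and 3.07 and 3.26 in the TAZ libraries. Values that differ this much between libraries of 1 antibody set the spread against which antibodies have to be compared.

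The highest fold per window ranged from 3.22 to 5.32. CCNA2 had 3.87 and 3.83 in the YAP libraries, against 3.22 and 3.56 in the TAZ libraries. MKI67 had 4.45 and 5.32 in the YAP libraries, against 3.71 and 3.62 in the TAZ libraries. CCND1 had 3.67 and 3.51 in the YAP libraries, against 4.14 and 5.24 in the TAZ libraries. In these 3 windows the antibodies did not overlap (exact two-sided permutation p = 0.333 each, the smallest possible), with YAP higher in 2 and TAZ higher in 1. Over the tiles with peaks in all 4 libraries the shares were 21.3% with both YAP libraries higher and 11.6% with both TAZ libraries higher. A window with more peaks has more chances of a high fold, so this measure can follow the number of peaks.

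**Figure D4:**
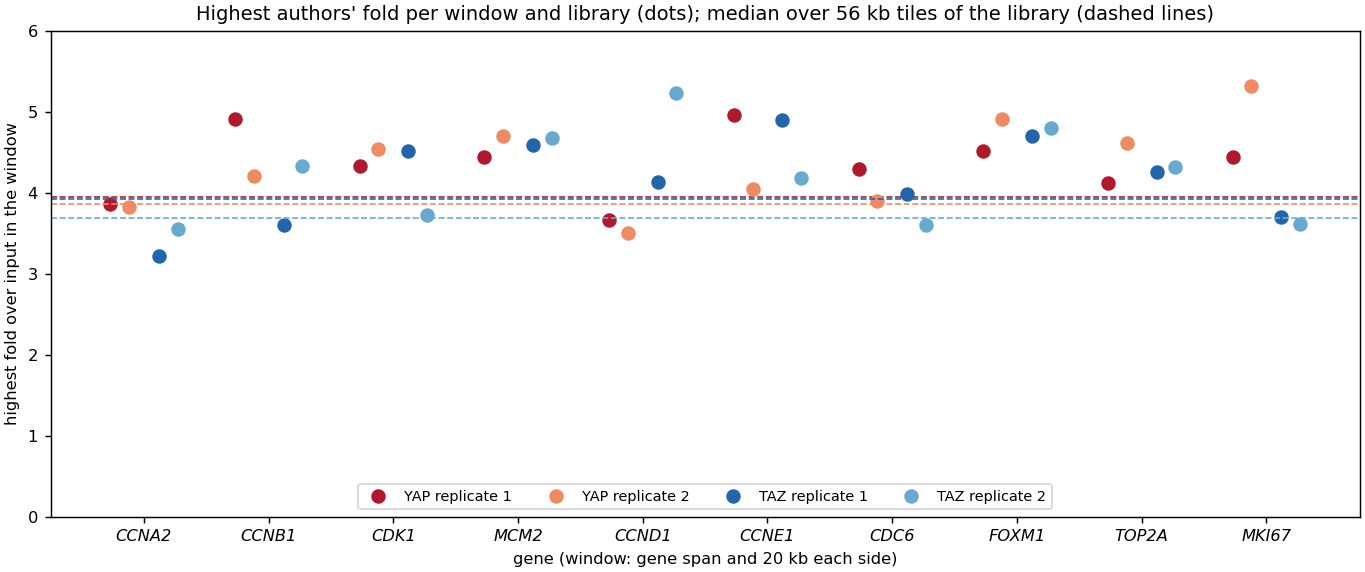
The highest fold of any deposited peak in the window is plotted for each gene with 1 dot per library, and dashed lines give each library's median of the same measure over 56 kb tiles. CCND1 has its TAZ dots above its YAP dots, CCNA2 and MKI67 the reverse, and the other 7 genes overlap.

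A peak with a fold of at least 4 was present in all 4 libraries in 4 windows (MCM2, CCNE1, FOXM1 and TOP2A), and in 7.83% of the tiles. Of all peaks in the windows, 18 and 13 in the YAP libraries, against 13 and 8 in the TAZ libraries, reached that fold, or 15.4% and 11.2% for YAP, against 11.3% and 6.45% for TAZ. In the whole lists the shares were 9.22% and 7.52% for YAP, against 9.68% and 5.60% for TAZ. Among the 20000 peaks of each list with the highest −log10 q, 6 and 12 of the YAP peaks and 9 and 9 of the TAZ peaks fell in the windows. Of all peaks, the windows held 117 of 392120 and 116 of 353336 in the YAP libraries. In the TAZ libraries they held 115 of 333505 and 124 of 310657. The strong peaks in the windows were few and no test was made on them, so their counts are not read as an excess or a shortfall. CCNE1 held 3 and 4 of these in the YAP libraries, against 4 and 3 in the TAZ libraries.

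The number of peaks did not always follow coverage. CCNB1 had 8 peaks in each YAP library, against 10 and 12 in the TAZ libraries, although it was covered more in the YAP libraries. FOXM1 had 10 and 12 peaks in the YAP libraries, against 15 and 16 in the TAZ libraries. Both YAP libraries had more peaks in 2 windows (MCM2 and CCNE1), as in 28.8% of the tiles, and both TAZ libraries in 4 (CCNB1, CCND1, CDC6 and FOXM1), as in 5.21% of the tiles. For FOXM1, CCNB1 and CDC6 the libraries with more peaks had the lower coverage. At CCND1 the TAZ libraries had both more peaks and the higher coverage.

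The lists overlapped more in the member windows than over the genome. The Jaccard index, the bases under peaks of both libraries divided by those under peaks of either, was 0.724 for the YAP pair and 0.612 for the TAZ pair within the windows. Between a YAP and a TAZ library it was 0.646, 0.604, 0.631 and 0.604. Over chromosomes 1 to 22 and X the same pairs had 0.612 for YAP, 0.494 for TAZ and 0.495 to 0.540 between antibodies. The YAP pair was the most alike in both, while the TAZ pair lay within the range of the pairs between antibodies in the windows. The index can rise with coverage alone. The lists covered 36.2% to 40.7% of the windows, against 13.3% to 16.9% of the genome. The peak names in all 4 lists give 1 common input. Neither the part of coverage nor that of the input in the overlap was tested. Bases under both YAP libraries and neither TAZ library were most frequent at FOXM1, with 6.62% of the window, and TOP2A, with 5.50%, whereas the average tile had 1.72%.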

How the data were processed

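ChIP-seq of 2 YAP, 2 TAZ and 2 input libraries was used, with groups and replicate numbers from the labels' titles. The tools, per the submitters' processing notes, were MACS2, Bowtie2, cutadapt and SAMtools, with build hg19. Their versions and settings are not given in the sources used here. Deposited lists hold one set of broad peaks per library, each with the authors' fold ratio over input, and the caller's −log10 p and −log10 q, the lowest −log10 q being 1.00 to 1.02. The deposited score is −log10 q on another scale, by the values, and was not used. Peak names inside the lists give one common input, which the lists' own names do not.

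Members and lists were chosen with earlier results of these data known. Peaks on chromosomes 1 to 22 and X were intersected with the windows in Python 3.11.15 (numpy 2.4.6, pandas 2.3.3, scipy 1.17.1). All members were named, and in each window the peak with the highest −log10 q per library and those in the start zone were described. Strands came from the RefSeq promoter table, except for CCND1 and FOXM1, for which they are general knowledge. Coverage code was tested on simulated lists. Antibodies were compared by exact two-sided permutation over libraries. A peak list gives no read totals, so depth is unknown. Alternatives varied the flank, the start zone, the peaks kept and the libraries kept. Scaling by genome coverage, the settings for single genes, those for windows with TAZ higher, 2 further settings for the tiles and the values per replicate pair were added after seeing the data.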

Additional observations from a re-analysis of the deposited data

How the results depend on the processing

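The YAP minus TAZ difference in covered share of the windows (2.31 points) was 0.122 without flanks, 5.25 with a q-value of at most 0.01, -0.777 with lists shortened to the shortest and 0.271 with strong peaks only (the 20000 per library with the highest −log10 q); leaving out 1 library gave 1.00 (without TAZ replicate 1), 1.42 (without YAP replicate 1) and up to 3.62 (without TAZ replicate 2). The difference in number of peaks (-3) was 11.5 at a q-value of at most 0.01, 5.0 at a fold of at least 4, -18.5 with shortened lists and 0 with strong peaks only, and ran from -7.5 to 1.5 without 1 library, being 1.5 without TAZ replicate 2. Taking the replicate number as a block leaves a difference of means unchanged by arithmetic. It is therefore no check on 2.31, on -3 or on the mean highest fold difference of 0.175. The replicate numbers share no stated batch, and the covered difference was 4.51 in replicate pair 1 and 0.112 in pair 2. Windows with both YAP libraries higher (5) numbered 3 without flanks, 3 at a fold of at least 4, 3 with shortened lists, 0 with strong peaks only, 1 relative to genome coverage and 5 to 7 without 1 library. Those with both TAZ libraries higher (1) numbered 2 without flanks, 0 at a q-value of at most 0.01, 3 with shortened lists, 0 with strong peaks only, 3 relative to genome coverage and 1 to 3 without 1 library, with 3 without TAZ replicate 1 and 2 without YAP replicate 1 or TAZ replicate 2. The share of tiles with TAZ higher was 2.95% at a q-value of at most 0.01, 11.8% with shortened lists and 14.3% relative to genome coverage. That with YAP higher was 55.8%, 32.5% and 30.4% under the same settings. No such share was made without flanks, at a fold of at least 4, with strong peaks only or without 1 library. The counts of windows under those settings therefore have no background. Without 1 library, 1 is set against 2, so the counts of windows without overlap could not fall. Start zones with a peak in all 4 libraries (8) numbered 4, 0, 5 and 0 under the q-value, fold, shortened-list and strong-peak settings, 1 where peaks had to cover at least 50% of the zone, and 8 to 9 without 1 library. No share of tiles was made for start zones under these settings. This count and the share of the windows under all libraries need a peak in every library kept. Leaving out 1 library therefore could not lower either of them. The share of the windows under all 4 libraries (22.5%) was 16.1% without flanks, 18.9% at the stricter q-value, 0.101% at a fold of at least 4, 1.12% with strong peaks and 24.4% to 26.6% without 1 library. Of the 6 windows without overlap, 4 changed sign: CCNB1 to -5.71 without flanks and -0.151 relative to the genome, FOXM1 to -1.70 at a fold of at least 4 and -0.582 with strong peaks, TOP2A to -0.491 and -1.27 under the same settings, and MKI67 to -0.223 with shortened lists. No mean highest fold could be had without flanks, with 5 kb flanks, at a fold of at least 4 or with strong peaks, since some windows then hold no peak. The cause was not tested for any of these changes. Shortened lists remove the weakest peaks of 3 of the 4 libraries, and unknown depth limits every comparison of list length or coverage.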
